A study of Saccharomyces cerevisiae with 10 samples.

Results

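The budding yeast cell division cycle is driven by a single cyclin-dependent kinase, Cdc28, and by the cyclins that bind it in turn. The genes described here are the G1 cyclins CLN1, CLN2 and CLN3, the B-type cyclins CLB1 to CLB6, and SIC1, which encodes an inhibitor of the B-type cyclin complexes. They are the 10 genes whose symbol in the platform annotation is one of these names, out of 5645 named genes on the array, and each lies on 1 row.

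The G1 cyclins commit a cell to division at Start: Cln3 acts first, and it leads to transcription of CLN1 and CLN2 and of the S phase cyclins CLB5 and CLB6 by the factors SBF and MBF. Sic1 holds the B-type cyclin complexes inactive in G1 and is destroyed at the onset of DNA replication, after which Clb3 and Clb4, and then Clb1 and Clb2, carry the cell through spindle assembly and mitosis. Cyclic AMP and protein kinase A link this machinery to nutrients in yeast, since in cells moved to glucose they hold back CLN1 transcription and raise the size at which cells pass Start.

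Gene expression in 2 strains of Saccharomyces cerevisiae, DJ28 and FY23, was compared on 10 arrays with 2 dyes, each array holding both strains. DJ28 was in Cy3 and FY23 in Cy5 on arrays 1 to 5, and the dyes were swapped on arrays 6 to 10. The series title speaks of a mutant in which Ras/cAMP signalling is constantly active, and PDE2, the gene of the high-affinity cyclic AMP phosphodiesterase, is a keyword of the labels. The sources used here give no genotype, growth medium or culture phase, nor do they say which arrays share a culture. The p-values therefore measure the spread between arrays alone, which may be technical.

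Values are the log2 ratio of DJ28 over FY23 with the median gene of each array set to 0, so a value above 0 means more transcript in DJ28 than in FY23 relative to that gene. Unless stated, ratios of single arrays or replicates, counts of these and means by phase were not corrected for a gene's dye effect. This is its common shift between the dyes, for which the reported differences were corrected. The sources do not name the numerator of the deposited ratios. Cy5 was taken, which puts PDE2 lower in DJ28 (log2 difference -1.96, 3.89-fold, limma adjusted p = 0.00153, lower on 8 of 8 replicates with a value). The choice of Cy5 was made from PDE2 itself, so this p-value and count do not bear on the direction. That choice assumes that DJ28 is the mutant and has less PDE2 transcript, and the sources give no genotype. The direction is likely but not settled, and with Cy3 as the numerator the sign of every difference given here would be the opposite. Arrays 6 and 7 correlated at r = 0.988, against at most 0.694 for any other pair of arrays, so they were averaged into 1 replicate, giving 9 in all. Between arrays of the same dye orientation the lowest r was -0.008, so some replicates did not resemble each other. Arrays 3 to 10 held between 5755 and 6048 values, array 1 held 2230 and array 2 held 4342. Of the 10 genes, array 1 measured 5 and array 2 measured 8.

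None of the cyclin genes and not SIC1 differed between DJ28 and FY23 past the test. CLB3 and CLB4 had too few values to be tested, and of the 8 tested genes 0 were higher and 0 were lower in DJ28 (limma, adjusted p from 0.476 to 0.972). Across the 5642 genes tested, 0.0886% were called higher and 0.461% lower in DJ28, so 0 of 8 is a share near the background and no result about these genes. At an unadjusted p under 0.05 limma's count was also 0 of 8 in each direction, as was that of the exact permutation test described below, beside 5.96% of all tested genes higher and 7.39% lower. The 8 differences ran from -0.164 to 0.191, with 4 above and 4 below 0. Their median size without sign was 0.143, against 0.14 over all tested genes. The 95% intervals, which cover the spread between arrays in this fit only, had their end farthest from 0 at a 1.47-fold difference for CLN1, 1.35-fold for CLB2, 1.33-fold for CLB6, and between 1.21-fold and 1.29-fold for the other 5. They are no bound on the strain difference, since other choices of arrays moved them: the interval of CLN1 reached 0.647 on the log2 scale without array 10, against 0.552 here, and that of CLB2 reached -0.551 without arrays 1 and 2, against -0.429 here.

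**Figure D1:**
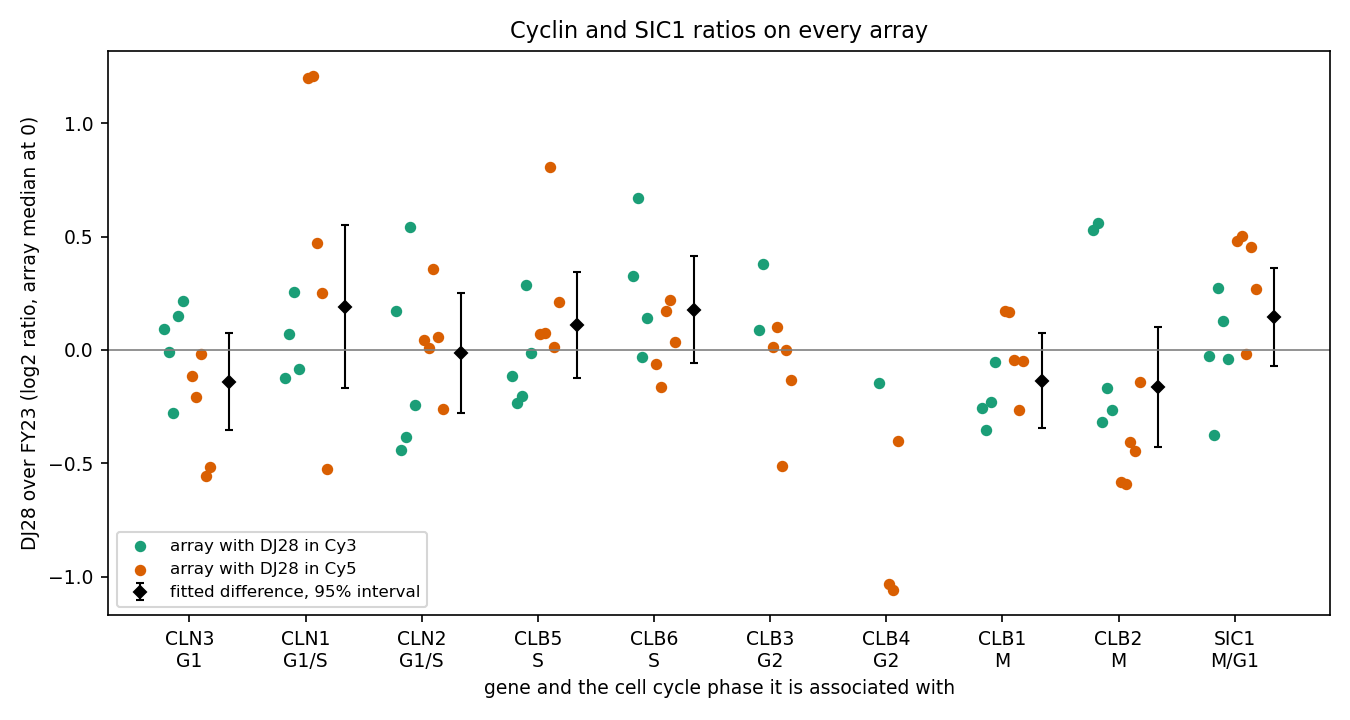
Log2 ratio of DJ28 over FY23 (y axis, array median at 0) for each gene (x axis, in the order of cell cycle phase) on every array with a value, coloured by dye orientation, with the fitted difference and its 95% interval in black for the 8 tested genes. All 8 intervals include 0, and the highest points are those of CLN1 on arrays 6 and 7.

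CLN3 (YAL040C) encodes the G1 cyclin that acts upstream of the others. With DJ28 in Cy3 its log2 ratios of DJ28 over FY23 were 0.092, -0.008, -0.277, 0.148 and 0.215 on arrays 1 to 5, and with DJ28 in Cy5 they were -0.115, -0.208, -0.020, -0.557 and -0.517 on arrays 6 to 10. DJ28 was thus below FY23 on all 5 arrays with DJ28 in Cy5 and on 2 of the 5 with DJ28 in Cy3. These ratios also hold the dye effect, estimated at -0.174 for CLN3. The difference was -0.14 (SE 0.097, limma adjusted p = 0.535), and 6 of 9 replicates were below 0. The exact two-sided permutation test of the dye orientation over replicates gave p = 0.135, where 0.00794 is the smallest it can give.

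CLN1 (YMR199W) and CLN2 (YPL256C) encode the paired G1 cyclins that drive Start itself. CLN1 had no value on array 1. Its ratios were -0.124, 0.071, 0.257 and -0.083 on arrays 2 to 5 and 1.200, 1.207, 0.474, 0.253 and -0.525 on arrays 6 to 10. Arrays 6 and 7, the near-identical pair, gave the highest ratios of any of the 10 genes on any array, and array 10, of the same dye orientation, gave the lowest for CLN1. The difference was 0.191 with an SE of 0.163, the widest of the 8 (limma adjusted p = 0.62, 5 of 8 replicates above 0, exact permutation p = 0.371). It was 0.049 without arrays 6 and 7, -0.025 within arrays 4, 5, 9 and 10 alone, and -0.102 when arrays were weighted by their precision, so its direction was not stable.

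CLN2 was measured on all 10 arrays. Its ratios were 0.170, -0.443, -0.383, 0.542 and -0.243 on arrays 1 to 5 and 0.045, 0.009, 0.358, 0.056 and -0.261 on arrays 6 to 10. Values above and below 0 occurred in both dye orientations. The difference was -0.013 with an SE of 0.121 (limma adjusted p = 0.972, 5 of 9 replicates above 0, exact permutation p = 0.921), the smallest of the 8. Its interval ran from -0.279 to 0.252. Within an array CLN1 exceeded CLN2 on 6 of 8 replicates, by 0.234 ± 0.46 (SD, n = 8) in the ratio of DJ28 over FY23, and the exact permutation test of this gap gave p = 0.257 (p = 0.771 adjusted over the 3 pairs of related cyclins compared). The largest gap, 1.176, was that of arrays 6 and 7 (CLN1 at 1.203 and CLN2 at 0.027). The 2 genes are close in sequence, as are CLB1 and CLB2. Whether their spots share hybridisation was not tested.

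CLB5 (YPR120C) and CLB6 (YGR109C) encode the cyclins that start DNA replication. CLB5 had ratios of -0.115, -0.235, -0.205, 0.288 and -0.012 on arrays 1 to 5 and 0.072, 0.075, 0.807, 0.014 and 0.211 on arrays 6 to 10. DJ28 exceeded FY23 on all 5 arrays with DJ28 in Cy5 and on 1 with DJ28 in Cy3, and array 8 stood highest. These ratios also hold the dye effect, estimated at 0.166 for CLB5. The difference was 0.11 with an SE of 0.108 (limma adjusted p = 0.667, exact permutation p = 0.365), and it was 0.022 without array 8.

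CLB6 had no value on array 1. Its ratios were 0.327, 0.671, -0.033 and 0.139 on arrays 2 to 5 and -0.063, -0.164, 0.173, 0.221 and 0.036 on arrays 6 to 10. Its difference of 0.178, with an SE of 0.106, came with the smallest limma p of the 8 genes (adjusted p = 0.476), and 6 of 8 replicates were above 0. The exact permutation test gave p = 0.0571, where 0.0286 is the smallest it can give on 8 replicates. The gap between CLB5 and CLB6 within an array was -0.06 ± 0.491 (SD, n = 8; exact permutation p = 0.771).

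CLB3 (YDL155W) and CLB4 (YLR210W) encode the B-type cyclins that act in spindle assembly before Clb1 and Clb2. CLB3 had values on 7 arrays: 0.087 and 0.381 on arrays 4 and 5, then 0.011, 0.100, -0.514, 0.001 and -0.133 on arrays 6 to 10. CLB4 had values on 4 arrays: -0.146 on array 5, and -1.035, -1.058 and -0.400 on arrays 6, 7 and 8. DJ28 was below FY23 on each of these 4 arrays, of which 2 are the near-identical pair. With the requirement of 3 values in each orientation relaxed to 1, the CLB3 difference was 0.043 (SE 0.136, limma adjusted p = 0.918) and the CLB4 difference was -0.435 (SE 0.24, limma adjusted p = 0.507, 95% interval from -1.057 to 0.188). The CLB4 value rests on 3 replicates, on which the smallest exact permutation p is 0.333.

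CLB1 (YGR108W) and CLB2 (YPR119W) encode the mitotic cyclins. CLB1 had no value on array 1. Its ratios were -0.258, -0.355, -0.228 and -0.054 on arrays 2 to 5 and 0.173, 0.168, -0.044, -0.265 and -0.051 on arrays 6 to 10. DJ28 was below FY23 on 7 of 8 replicates, the exception being the mean of arrays 6 and 7. The difference was -0.136 with an SE of 0.094 (limma adjusted p = 0.536, exact permutation p = 0.0571), and it stayed between -0.172 and -0.099 over 21 alternatives.

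CLB2 had ratios of 0.530, 0.559, -0.320, -0.167 and -0.265 on arrays 1 to 5 and -0.585, -0.591, -0.408, -0.447 and -0.143 on arrays 6 to 10. DJ28 was below FY23 on all of arrays 3 to 10, and above it on arrays 1 and 2, which held the fewest values. The difference was -0.164 with an SE of 0.121 (limma adjusted p = 0.552, exact permutation p = 0.206). Without arrays 1 and 2 it was -0.324 with an SE of 0.101, and it still did not pass over all genes (limma adjusted p = 0.298). CLB1 exceeded CLB2 by 0.087 ± 0.448 within an array (SD, n = 8; exact permutation p = 0.543). Among the protein-coding genes of assembly R64, CLB1 and CLB6 are neighbours on chromosome VII and CLB2 and CLB5 on chromosome XVI. Each mitotic cyclin gene thus lies beside an S phase cyclin gene. In both places the fitted difference was below 0 for the mitotic and above 0 for the S phase gene. None of these differences passed the test, so their signs are no result.

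SIC1 (YLR079W) is transcribed at the end of mitosis under Swi5. Its ratios were -0.027, -0.376, 0.274, 0.128 and -0.042 on arrays 1 to 5 and 0.481, 0.504, -0.019, 0.456 and 0.268 on arrays 6 to 10. With DJ28 in Cy3 the values lay on both sides of 0, and with DJ28 in Cy5 4 of 5 arrays were above 0. The difference was 0.145 with an SE of 0.099 (limma adjusted p = 0.53, 5 of 9 replicates above 0, exact permutation p = 0.103). A dye effect common to all arrays was estimated for each gene, and none of the 8 passed (limma adjusted p from 0.267 for CLB2 to 0.8 for CLN2). For CLN3 (-0.174), CLB5 (0.166), CLB2 (-0.232), SIC1 (0.154) and CLN2 (0.058) it was larger in size than the gene's strain difference. For CLN1 (0.16), CLB6 (-0.098) and CLB1 (0.088) it was smaller.

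Averaged by phase, the G1 cyclins had values spread around 0, the S phase cyclins mostly values above 0 and the mitotic cyclins mostly values below 0, while no gene of any class passed the test. The mean ratio of CLN1, CLN2 and CLN3 ran from -0.434 to 0.356 over the 8 replicates that measured all of them, 3 above and 5 below 0. That of CLB5 and CLB6 averaged 0.148 ± 0.157 (SD, n = 8) and was above 0 on 7 of 8 replicates. That of CLB1 and CLB2 averaged -0.179 ± 0.158 (SD, n = 8) and was below 0 on 7 of 8 replicates, array 2 being the exception at 0.150. Array 1 is in none of these means, and there CLB2 was at 0.530 and CLB5 at -0.115, each against the sign of its class. The genes of a class also differed in sign on single replicates. CLB5 and CLB6 did so on arrays 2 (-0.235 and 0.327), 3 (-0.205 and 0.671), 4 (0.288 and -0.033) and 5 (-0.012 and 0.139). On the mean of arrays 6 and 7 they were at 0.073 and -0.114, and both were above 0 only on arrays 8, 9 and 10. CLB1 and CLB2 differed in sign on array 2 (-0.258 and 0.559) and on the mean of arrays 6 and 7 (0.171 and -0.588). These means are descriptions of genes already chosen and carry no test.

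**Figure D2:**
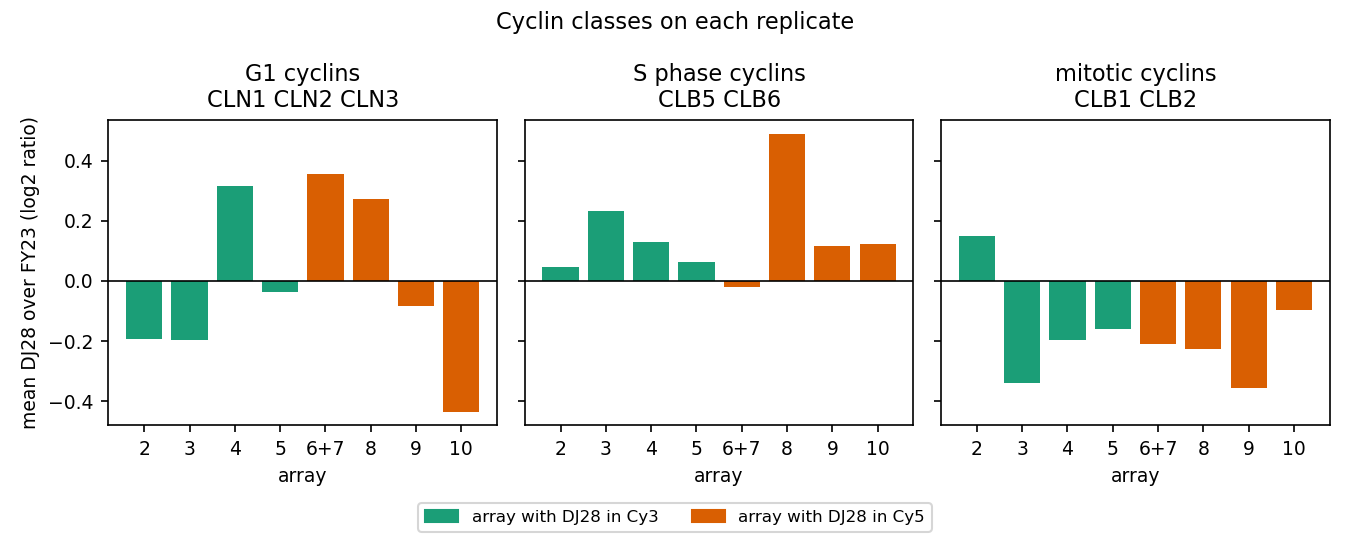
Mean log2 ratio of DJ28 over FY23 (y axis) of the G1, S phase and mitotic cyclins on each replicate that measured all genes of the class (x axis, array number, with arrays 6 and 7 averaged), coloured by dye orientation. The S phase bars are above 0 except on arrays 6 and 7 (-0.020), and the mitotic bars are below 0 except on array 2 (0.150). CLB5 and CLB6 differed in sign on each of arrays 2 to 5.

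No label gives a batch, but arrays 4, 5, 9 and 10 differ from the rest in that only they hold ratios capped at the top of the scale. Within arrays 4, 5, 9 and 10, CLN3 differed by -0.178, CLB2 by -0.255, CLB1 by -0.150, SIC1 by 0.202, CLB5 by 0.125 and CLB6 by 0.091. Within the remaining arrays only 5 of the 10 genes had enough values, and CLN3 differed by -0.078, CLN2 by -0.013, CLB2 by -0.121, CLB5 by 0.127 and SIC1 by 0.097. CLN2 aside, at 0.023 and -0.013, the sign of each gene measured in both sets was the same. None of the 8 passed over all genes in either set (limma adjusted p from 0.274 to 0.942 in the first and from 0.631 to 0.965 in the second).

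Other cell cycle genes likewise gave no call. In 10 lists of cell cycle genes, which held 115 distinct tested genes, 0 passed in either direction (limma, lowest adjusted p = 0.126), and at an unadjusted p under 0.05 there were 3 higher and 7 lower in DJ28, or 2.61% and 6.09%, no more than the shares of all tested genes. The transcription regulators of Start, among them SWI6 and WHI3, had a median difference of 0.021 over 7 tested genes (-0.003 without arrays 6 and 7), and SWI4, MBP1 and WHI5 had too few values. In this list YHP1, which encodes a repressor of early cell cycle genes, differed by 0.40 (limma adjusted p = 0.324). The G1/S genes transcribed by SBF and MBF, which serve DNA synthesis and budding, had a median of 0.048 over 34 tested genes, 21 above and 13 below 0. RFA2, which encodes a subunit of the single-strand binding protein RPA, differed by 0.28 (adjusted p = 0.353). RAD53, which encodes the DNA damage checkpoint kinase, differed by -0.23 (adjusted p = 0.36) and FKS1, which encodes a glucan synthase of the cell wall, by -0.66 (adjusted p = 0.371).

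The 8 core histone genes, transcribed in S phase, all had differences above 0, between 0.07 and 0.195, and 0 passed limma's test, also at an unadjusted p under 0.05. They form pairs of genes close in sequence, so they may not be separate measurements. Whether their spots share hybridisation was not tested. The median ratio of the list on a single replicate ran from -0.97 to 1.726, and their dye effects lay between 0.63 and 0.95, larger than any strain difference among them. The direction rests on arrays 6 and 7: the median difference of the list was 0.112, and -0.032 without these arrays. HTA1 differed by 0.19 (adjusted p = 0.571), HTA2 by 0.17 (adjusted p = 0.655) and HHT1 by 0.11 (adjusted p = 0.784).

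In the G2/M list, the CLB2 cluster transcribed with CLB1 and CLB2, 10 of 19 tested genes lay above and 9 below 0, with a median of 0.019 (-0.015 without arrays 6 and 7). WSC4, a cell wall sensor gene, was below 0 on 8 of 8 replicates (-0.26, limma adjusted p = 0.324). KIP2, which encodes a kinesin, differed by -0.26 (adjusted p = 0.367) and KIN3, which encodes a protein kinase, by 0.27 (adjusted p = 0.415). The mitotic transcription factors MCM1, SWI5 and FKH2 differed by -0.11, -0.11 and 0.01 (adjusted p of 0.666, 0.668 and 0.983).

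The pre-replication genes encode the replicative helicase and factors that load it onto DNA at the end of mitosis and in G1. Here they are MCM2 to MCM7, CDC6 and ORC1, with a median of -0.091 over 8 tested genes. CDC6, which encodes a loader of the replicative helicase, differed by -0.15 (limma adjusted p = 0.437), and MCM3 and MCM4, which encode subunits of that helicase, by -0.27 and -0.24 (adjusted p of 0.455 and 0.459).

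**Figure D3:**
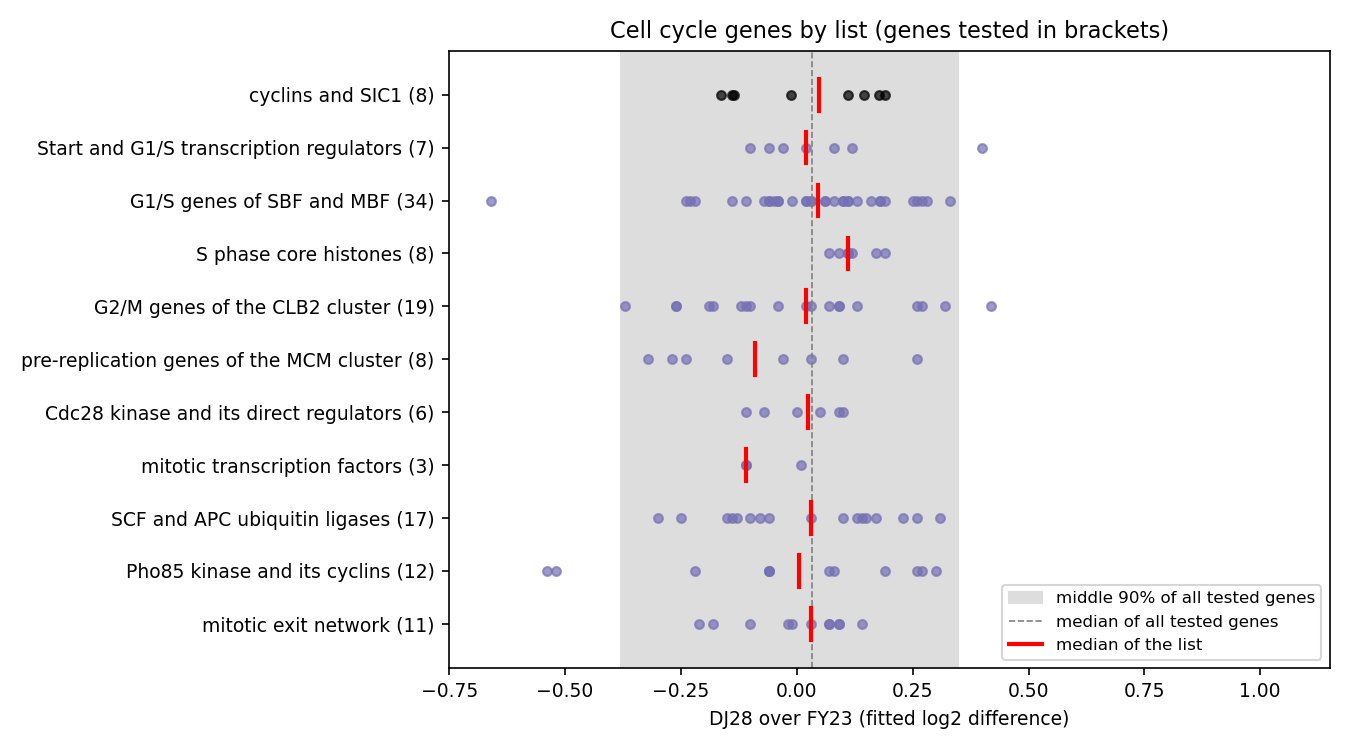
Fitted log2 difference of DJ28 over FY23 (x axis) for each tested gene of the cyclin group (black) and of 10 cell cycle lists (purple), with the median of each list in red. The grey band holds the middle 90% of all tested genes, and the medians of the lists lie between -0.11 and 0.112, beside 0.032 for all tested genes.

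The partners of the cyclins likewise gave 0 calls. CDC28 had too few values to be tested. Of its direct regulators, SWE1, which encodes the kinase that inhibits it, differed by -0.11 (limma adjusted p = 0.649), FAR1, which encodes a G1 inhibitor, by 0.10 (adjusted p = 0.661) and CAK1, which encodes its activating kinase, by 0.09 (adjusted p = 0.792). Among the ubiquitin ligases that destroy cyclins and Sic1, 17 genes were tested, with a median of 0.027. APC1, a scaffold subunit gene of the anaphase-promoting complex, was below 0 on 8 of 8 replicates (-0.30, adjusted p = 0.255). APC5, another subunit gene, differed by 0.23 (adjusted p = 0.436) and CDC53, the cullin gene of the SCF ligase, by -0.25 (adjusted p = 0.439). Among the cyclins of the second kinase Pho85, CLG1 differed by -0.54 (SE 0.13, limma adjusted p = 0.126, below 0 on 8 of 9 replicates). PHO85 itself differed by 0.30 (adjusted p = 0.279) and its inhibitor gene PHO81 by -0.22 (adjusted p = 0.371). In the mitotic exit network the median was 0.028 over 11 genes, with BUB2, a spindle position checkpoint gene, at -0.21 (adjusted p = 0.457), NET1, which encodes the nucleolar anchor of the phosphatase Cdc14, at -0.18 (adjusted p = 0.535), and DBF2, a kinase gene of the network, at 0.09 (adjusted p = 0.682).

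Genes specific to mating type were also measured. STE3 and MF(ALPHA)1, specific to alpha cells, differed by 0.00 and -0.05 (limma adjusted p of 0.994 and 0.956), and MF(ALPHA)2 had too few values. Of the genes specific to a cells, MFA1 differed by 0.60, MFA2 by 0.50, STE2 by 0.29, BAR1 by 0.21 and STE6 by 0.01, and none passed (adjusted p from 0.224 to 0.981). At an unadjusted p under 0.05, however, 3 of the 7 tested mating-type genes, MFA1, MFA2 and STE2, were higher in DJ28 and 0 were lower, against 5.96% and 7.39% of all tested genes. MFA1 and MFA2 carried dye effects of 0.82 and 0.69. MFA1 was above 0 on 5 of 8 replicates, MFA2 on 6 of 9 and STE2 on 8 of 9.

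When the choice of arrays, the filter, the centring or the model was altered, in 22 ways, none of the 8 genes passed limma's test in any. CLN3, CLB1 and CLB2 stayed below 0 and CLB5, CLB6 and SIC1 above 0 in every alternative that tested them, while CLN1 changed sign in 2 and CLN2 in 8.

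**Figure D4:**
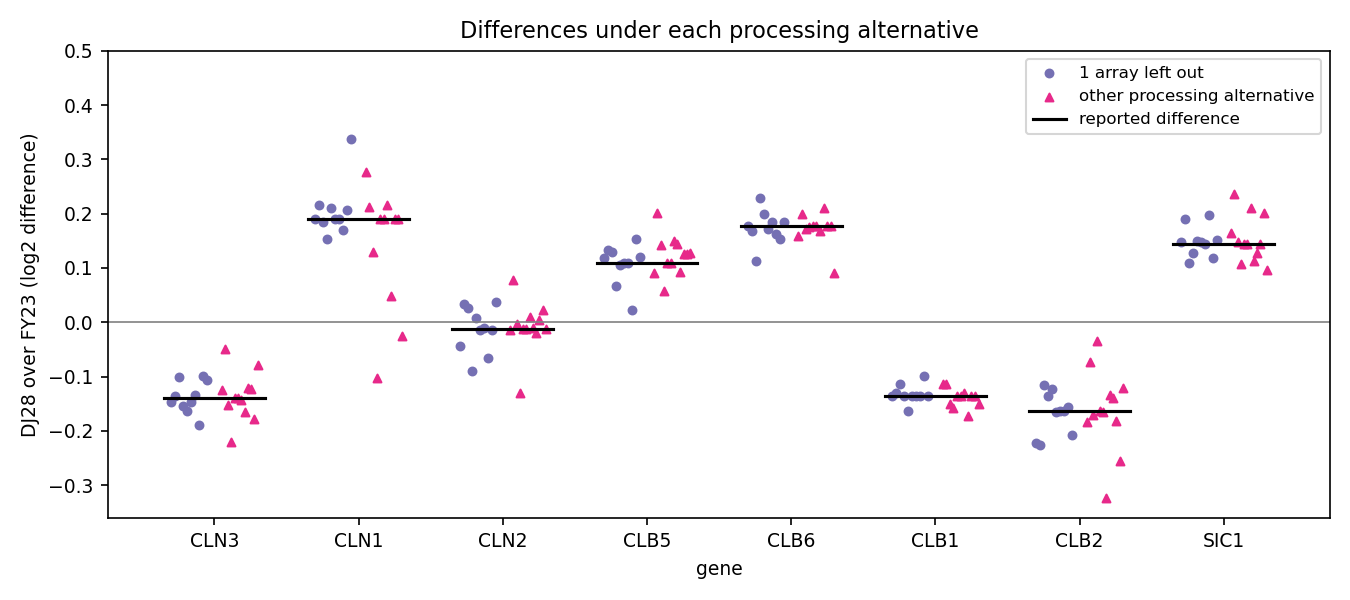
Log2 difference of DJ28 over FY23 (y axis) of each tested gene (x axis) with 1 array left out (circles) and under the other processing alternatives (triangles), beside the reported difference (line). The values of CLN1 and CLN2 fall on both sides of 0, and those of the other 6 genes on one side.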

How the data were processed

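In the table the authors deposited, 6277 rows have a value per array for 10 arrays. These values of the authors were taken as log2 ratios between the dyes, judged by the deposited values, of which 13 sit at a ceiling of 16.61. No label or header says how the authors normalized, corrected background or chose cells to leave blank. Rows were named through the platform annotation (5663 with 1 symbol, 0 with several, 614 unlisted), updated by gene identifier to assembly R64 for 5659. Each array was centred on its median after cells at the limit were set to missing. The fit (limma 3.58.1, R 4.3.3, lmFit and eBayes) had a dye and a strain term and took the 5642 genes measured in 3 or more replicates per dye orientation. P-values were adjusted by Benjamini-Hochberg over all genes, with a threshold of 0.05. Single genes were also tested by exact permutation of the dye orientation over replicates, unadjusted, since a p adjusted over chosen genes alone would be no call. The gaps within the 3 pairs of related cyclins were tested in the same way. Their exact permutation p adjusted over these pairs was 0.771 for each, and is no call either. The steps were also run on simulated data with known changes. Noise there was independent between genes and replicates, so that run does not show what size of difference the real arrays could detect.

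The genes, lists and tests were chosen with earlier results of these data known. Named list genes are up to 3 of each list with the smallest unadjusted p. The comparison of 3 pairs of related cyclins and the means by phase were chosen after the data were seen. Depth has no counterpart on these arrays, and their number limits the precision (median standard error 0.131). One further list of cell cycle genes is not reported here. No column of values was left unused.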

Additional observations from a re-analysis of the deposited data

How the results depend on the processing

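No cyclin gene and not SIC1 passed limma's test in any of 22 alternatives, so the counts of 0 higher and 0 lower held in each. CLN1 (0.191) reversed to -0.102 with array weights and to -0.025 within arrays 4, 5, 9 and 10. CLN2 (-0.013) reversed to 0.078 with no centring, 0.009 without arrays 1 and 2, 0.004 with a dye term in each array set and 0.023 within arrays 4, 5, 9 and 10, and with 1 array left out it ran from -0.090 to 0.038. The cause was not tested. The unadjusted p of limma was below 0.05 for CLN3 with array weights (-0.220), for CLN1 without array 10 (0.337) and for CLB2 without arrays 1 and 2 (-0.324) or within arrays 4, 5, 9 and 10 (-0.255). These are 1 of 22 alternatives for CLN3, 1 of 21 for CLN1 and 2 of 22 for CLB2, and the other genes had 0. In the reported fit, 5.96% of all tested genes were higher and 7.39% lower at this threshold. The shares in the alternatives were not counted, so these p-values are no result about the genes. Within the remaining arrays CLN1, CLB1 and CLB6 had too few values. Over all genes, the 5 higher and 26 lower calls ranged from 0 to 55 and from 0 to 182, the highest of each with array weights (14 and 65 with all 10 arrays apart, 0 and 4 with no centring, 0 and 6 without arrays 1 and 2, 8 and 71 without array 8, 1 and 9 without array 10). Of 44 list medians under 4 alternatives, all moved by less than the SD of the list's median ratio between replicates. That SD also holds dye effects and is a wide limit, so this does not show that the medians were stable. The sign changed in 7. Without arrays 6 and 7 these were the Start regulators (-0.003), the core histones (-0.032) and the CLB2 cluster (-0.015). With no centring they were the Start regulators (-0.004) and the ubiquitin ligases (-0.017). With scaling they were the Start regulators (-0.023) and the Pho85 list (-0.021).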

Other observations

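Similarity of pattern over the replicates was described for the 3 genes with the smallest unadjusted p, CLB6, SIC1 and CLN3, as the highest Pearson r of ratios corrected for each gene's dye effect. These are maxima over all genes measured on the same replicates, 8 for CLB6 and 9 for SIC1 and CLN3, and carry no test. For CLB6 the genes were VPS52 (r = 0.992), MRX8 (r = 0.972) and NOP6 (r = 0.965), among 3652 genes, and without the dye correction 0.922, 0.910 and 0.182. For SIC1 they were SWC7 (r = 0.869), MBR1 (r = 0.840) and YBR225W (r = 0.837), among 1916 genes, and without it 0.841, 0.875 and 0.674. For CLN3 they were NCE102 (r = 0.982), SUI2 (r = 0.979) and YJR115W (r = 0.977), and without it 0.207, 0.092 and 0.658. The likeness of NOP6, NCE102 and SUI2 thus depends on that correction.

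None of the 17 sets of 4 or 5 replicates of one gene in one dye orientation held a value far from the others by Dixon's criterion.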
